A study of Bos taurus with 27 samples.

Results

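The effect of a 6 h delay in the first colostrum meal was examined in the colon of calves born to primiparous heifers. All 8 calves that fit this description among the 27 calves of the study were taken, 4 fed colostrum immediately after birth (TRT0_H) and 4 fed 6 h after birth (TRT6_H). The feeding group was taken from the label of each sample and the parity of the dam from the calf list of the study. All 8 were male newborn Holstein calves of 51 h of age, and every group received colostrum, so no group was left unfed. The meal was pasteurised pooled colostrum given by oesophageal tube, followed by milk replacer that began a fixed time after that meal. TRT6_H calves therefore also began milk replacer later and had less time between colostrum and sampling. These parts of the delay cannot be told apart here. The tissue was a rinsed segment of whole proximal colon, so each library mixed epithelium, connective tissue, muscle and the cells between them, and fewer cells of a type cannot be told apart from less RNA per cell. Calves of multiparous cows (TRT0_C and TRT6_C, 5 in each group) were used only to ask whether a difference was larger in the calves of heifers.

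Colostrum is the first secretion of the mammary gland and brings immunoglobulins, growth factors, lipids and antimicrobial proteins to a gut that has not met food. In calves the small intestine takes up intact immunoglobulin for a short time after birth, and the colon meets the fluid, undigested remains and first microbes that pass beyond it. The colon epithelium absorbs water, salts and short-chain fatty acids, while the layers beneath it hold collagen-producing fibroblasts, smooth muscle, vessels, nerves and immune cells.

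Values are given as CPM, the reads of a gene divided by a library total that was scaled with a TMM factor, which corrects the totals for a few genes taking a large share of the reads. The 8 libraries held 1264884 to 2425707 deposited counts, so 3 counts corresponded to 1.18 to 2.45 CPM. These totals are far smaller than the number of reads per sample that the study reports. The reason was not examined, so the totals and read numbers given here describe the deposited counts and not the sequencing depth. Calves 4122 and 4146, both TRT6_H, had the smallest totals, and TRT6_H averaged 1668934 ± 476315 counts (SD, n = 4) against 2273487 ± 153182 (SD, n = 4) in TRT0_H (exact two-sided permutation test, p = 0.0571, adjusted p = 0.660 over 16 library measures). Between 13707 and 15253 genes per calf reached 1 CPM. Calf 4122 stood apart from the other 7 on the second principal component of log2 CPM (22.2% of the variance), carrying 76.2% of its squared weights. Results that rest on this calf are therefore also given without it. On the first component (23.4% of the variance) calf 4122 carried 0.0568%, and the largest share, 40.2%, was that of TRT0_H calf 4135. The 2 lanes each held 2 calves of either group, and the 2 smallest libraries were both in lane 6. Epithelium was present in the tissue, since the epithelial genes EPCAM, KRT19 and LGALS4 averaged 444, 570 and 494 CPM in TRT0_H. These genes do not by themselves tell the colon from other gut segments. The small-intestine marker ANPEP was also read, at 554 ± 346 CPM in TRT0_H and 788 ± 256 CPM in TRT6_H (SD, n = 4 each).

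Among 14437 genes at 1 CPM or more in at least 4 of the 8 calves, none differed between TRT6_H and TRT0_H at an adjusted p of at most 0.10 with a 1.2-fold change (edgeR quasi-likelihood test with Benjamini-Hochberg adjustment, 0% of genes called, lowest adjusted p = 0.712). DESeq2 also called 0 genes, whereas the likelihood ratio test and the exact test of edgeR each called 8. At an unadjusted p under 0.05, 257 genes were higher in TRT6_H (1.78% of those tested) and 248 were lower (1.72%). The scaled CPM of all 4 TRT6_H calves lay above those of all 4 TRT0_H calves for 157 genes (1.09%) and below them for 200 genes (1.39%). The median log2 fold change over all tested genes was 0.00. The genes described here therefore come from an order in which none passed the correction, and they are given for their values in each calf. A symbol was at hand for 3803 of the 14437 genes. Of these 3803, 2164 had a higher fitted level in TRT6_H and 1639 a lower one (median log2 fold change 0.03). Every gene described below with a symbol, other than RGS2, had an adjusted p of 1 in this test.

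**Figure D1:**
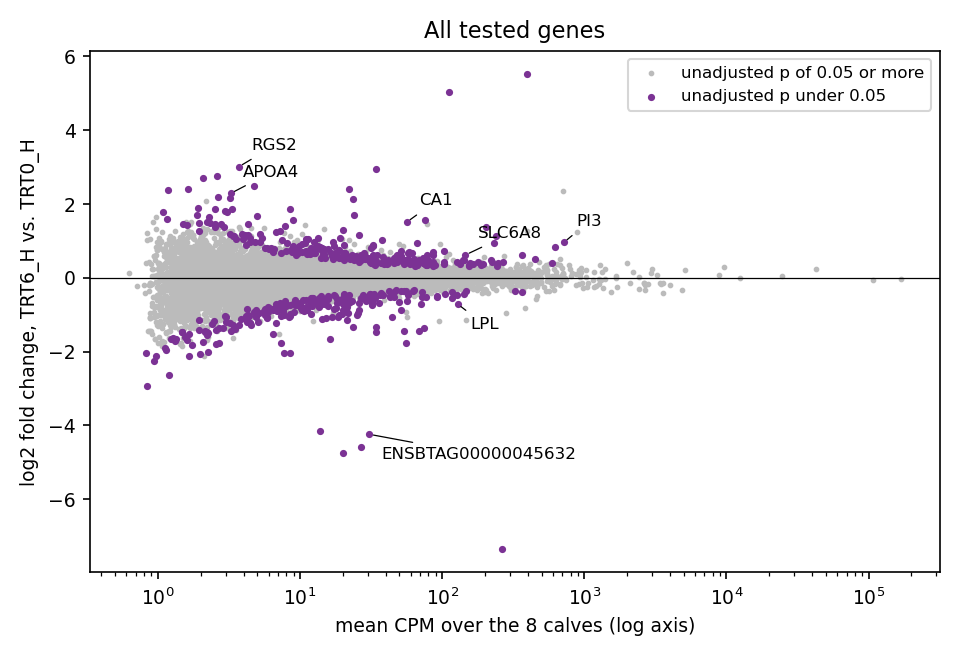
Log2 fold change of each of the 14437 tested genes, TRT6_H vs. TRT0_H (vertical axis), against its mean scaled CPM over the 8 calves (horizontal log axis), 1 point per gene. Purple points had an unadjusted p under 0.05 in the edgeR quasi-likelihood test, 257 above and 248 below the zero line, and no gene passed the adjusted threshold.

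RGS2 (ENSBTAG00000034366), which encodes a regulator that shortens signalling by G protein-coupled receptors, had the lowest p among the genes with a symbol. It was read at 1.18, 0.436, 0 and 1.47 CPM in TRT0_H calves 4124, 4135, 4138 and 4164. In TRT6_H calves 4114, 4122, 4125 and 4146 it was at 7.67, 10.5, 5.16 and 3.27 CPM. Each TRT6_H calf was above each TRT0_H calf, and the TRT0_H values came from 0 to 3 reads against 4 to 16 reads in TRT6_H. In the edgeR quasi-likelihood test this was a log2 fold change of 3.01 with an SE of 0.62, at an adjusted p of 0.876. The TRT6_H mean was 5.04 times the level of 3 counts per library in TRT0_H. This ratio leaves out the spread among calves and is no lower bound. Lane values here and below are log2 ratios of group means with 0.5 CPM added to each mean. The addition shrinks the ratio for genes with few reads, so such lane values are not alike to the fitted ones. For RGS2 the lane values were 3.36 in lane 6 and 1.92 in lane 7, and the fitted value was 2.77 without calf 4122. RGS2 passed the adjusted threshold in the likelihood ratio test (adjusted p = 0.00190), in the exact test of edgeR (adjusted p = 0.00568) and without a filter on low counts (adjusted p = 0.0187), but not in DESeq2 (adjusted p = 0.133) or with all 27 calves in the fit (adjusted p = 1). The related RGS5, a gene of pericytes and smooth muscle, was at 184 CPM in TRT0_H and 177 CPM in TRT6_H, with a log2 fold change of -0.06. RGS17 was at 2.09 and 0.956 CPM.

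Membrane transporters were among the genes that were higher in every TRT6_H calf than in any TRT0_H calf. SLC6A8 (ENSBTAG00000009959), the creatine transporter, was at 112, 132, 91.1 and 124 CPM in TRT0_H and at 161, 172, 189 and 185 CPM in TRT6_H. All 4 TRT6_H calves lay above the highest TRT0_H calf, with a log2 fold change of 0.62 (SE 0.15) that was 0.68 in lane 6 and 0.57 in lane 7. SLC26A2 (ENSBTAG00000014615), a sulphate transporter, was at 121, 113, 108 and 128 CPM in TRT0_H and at 137, 174, 180 and 171 CPM in TRT6_H (log2 fold change 0.49, SE 0.14). SLC31A1 (ENSBTAG00000021678), the high-affinity copper importer, averaged 135 ± 12.8 CPM in TRT0_H and 180 ± 26.2 CPM in TRT6_H (SD, n = 4 each). CHP2, a partner of sodium-proton exchangers, averaged 118 ± 20.3 and 164 ± 29.5 CPM. Leaving out calves 4122 and 4146 left SLC31A1 at a log2 fold change of 0.27 and CHP2 at 0.35, and neither was then at an unadjusted p under 0.05.

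Genes of protein and peptide handling were also in this group. LAP3 (ENSBTAG00000005989), a leucine aminopeptidase of the cytosol, was at 57.4, 67.5, 68.2 and 68.7 CPM in TRT0_H and at 81.5 to 142 CPM in TRT6_H, without overlap, a log2 fold change of 0.70 (SE 0.18). PSMD14, the deubiquitinase of the proteasome lid, averaged 24 ± 2.63 CPM in TRT0_H and 34.3 ± 3.37 CPM in TRT6_H (SD, n = 4 each). PI3 (ENSBTAG00000039028), which encodes the elastase inhibitor elafin of mucosal surfaces, was at 612, 418, 541 and 377 CPM in TRT0_H and at 714, 1724, 690 and 672 CPM in TRT6_H. Calf 4122 was the highest of the 8, and the log2 fold change of 0.96 (SE 0.28) was 0.51 without it.

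The other genes that were higher by these criteria had a range of roles. F3, tissue factor of the coagulation cascade, averaged 7.27 ± 1.2 CPM in TRT0_H and 14.3 ± 4.0 CPM in TRT6_H (log2 fold change 0.95, SE 0.28). LRRC42, a leucine-rich repeat protein, averaged 10.7 ± 0.853 and 18.7 ± 3.49 CPM (0.79, SE 0.23), and TCF19, a gene of proliferating cells, was at 9.43 to 14.7 and 15.9 to 25.1 CPM (0.77, SE 0.24). ARRDC4, an arrestin-domain protein induced with glucose uptake, averaged 26.8 ± 5.19 CPM in TRT0_H and 38.5 ± 4.59 CPM in TRT6_H. NUDT21, a subunit of the cleavage factor that selects polyadenylation sites, averaged 15.7 ± 1.57 and 23 ± 2.18 CPM, and DERA, the deoxyribose-phosphate aldolase, 25.1 ± 2.55 and 35.9 ± 6.33 CPM. LOC100336868 averaged 4.57 ± 1.52 CPM in TRT0_H and 13.4 ± 7.36 CPM in TRT6_H (1.57, SE 0.41), and LOC525599 averaged 107 ± 12.5 and 145 ± 8.41 CPM. Once the 2 smallest libraries were left out, TCF19, ARRDC4, NUDT21 and DERA had log2 fold changes of 0.52, 0.48, 0.46 and 0.34 and were no longer at an unadjusted p under 0.05.

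In the lower direction 10 genes with a symbol met the same criteria, which stop at 15 genes by p in each direction, so the 16 higher genes are not a tally. Among genes with a symbol the groups lay apart for 57 higher and 29 lower genes, whereas over all tested genes the lower direction had more (1.39% against 1.09%). LPL (ENSBTAG00000012855), the lipoprotein lipase that frees fatty acids from circulating triglyceride, was at 141 to 197 CPM in TRT0_H, and calves 4122, 4125 and 4146 of TRT6_H were at 95.5, 114 and 62.1 CPM. Calf 4114, the highest of TRT6_H, was also below every TRT0_H calf. The log2 fold change was -0.71 (SE 0.19), -0.87 in lane 6 and -0.60 in lane 7. The adipocyte hormone gene ADIPOQ, the sole fat marker with an identifier, was also lower on average, at 130 to 343 CPM in TRT0_H and at 143, 63.9, 153 and 2.45 CPM in TRT6_H (log2 fold change -1.13, SE 0.55). The lowest LPL and the lowest ADIPOQ value were both in calf 4146, and the part of fat tissue in the LPL values was not tested. DPT (ENSBTAG00000021211), the matrix protein dermatopontin, was at 118, 88.5, 93.8 and 134 CPM in TRT0_H and at 83.9, 84.2, 74.5 and 59.6 CPM in TRT6_H (log2 fold change -0.52, SE 0.17).

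PDIA5, a disulphide isomerase of the endoplasmic reticulum, averaged 25.3 ± 3.48 CPM in TRT0_H and 17.3 ± 0.809 CPM in TRT6_H (SD, n = 4 each, log2 fold change -0.54, SE 0.19). TOX, a nuclear factor of T cell development, averaged 25.9 ± 3.62 and 18.6 ± 1.15 CPM (-0.47, SE 0.19). NFU1, an iron-sulphur cluster scaffold of mitochondria, averaged 16.1 ± 2.12 and 11 ± 1.52 CPM (-0.55, SE 0.23). PDE1C, a phosphodiesterase regulated by calmodulin, was at 9.58 ± 0.572 CPM in TRT0_H and 5.65 ± 1.91 CPM in TRT6_H. SPX, the peptide spexin, was at 7.27 ± 1.78 and 3.84 ± 1.18 CPM, and WIPF3, an actin-regulating partner of the WASP proteins, at 18.6 ± 1.44 and 11.4 ± 5.14 CPM. DET1, a part of an ubiquitin ligase, and MBTD1, a reader of methylated histones, averaged 7.63 and 23.6 CPM in TRT0_H and 4.50 and 17.3 CPM in TRT6_H. The SPX, DET1 and PDE1C values rest on 3 to 26 reads per calf. Without the 2 smallest libraries, TOX, WIPF3, SPX, PDE1C, NFU1 and MBTD1 were no longer at an unadjusted p under 0.05, with log2 fold changes of -0.45, -0.61, -0.83, -0.57, -0.50 and -0.33.

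**Figure D2:**
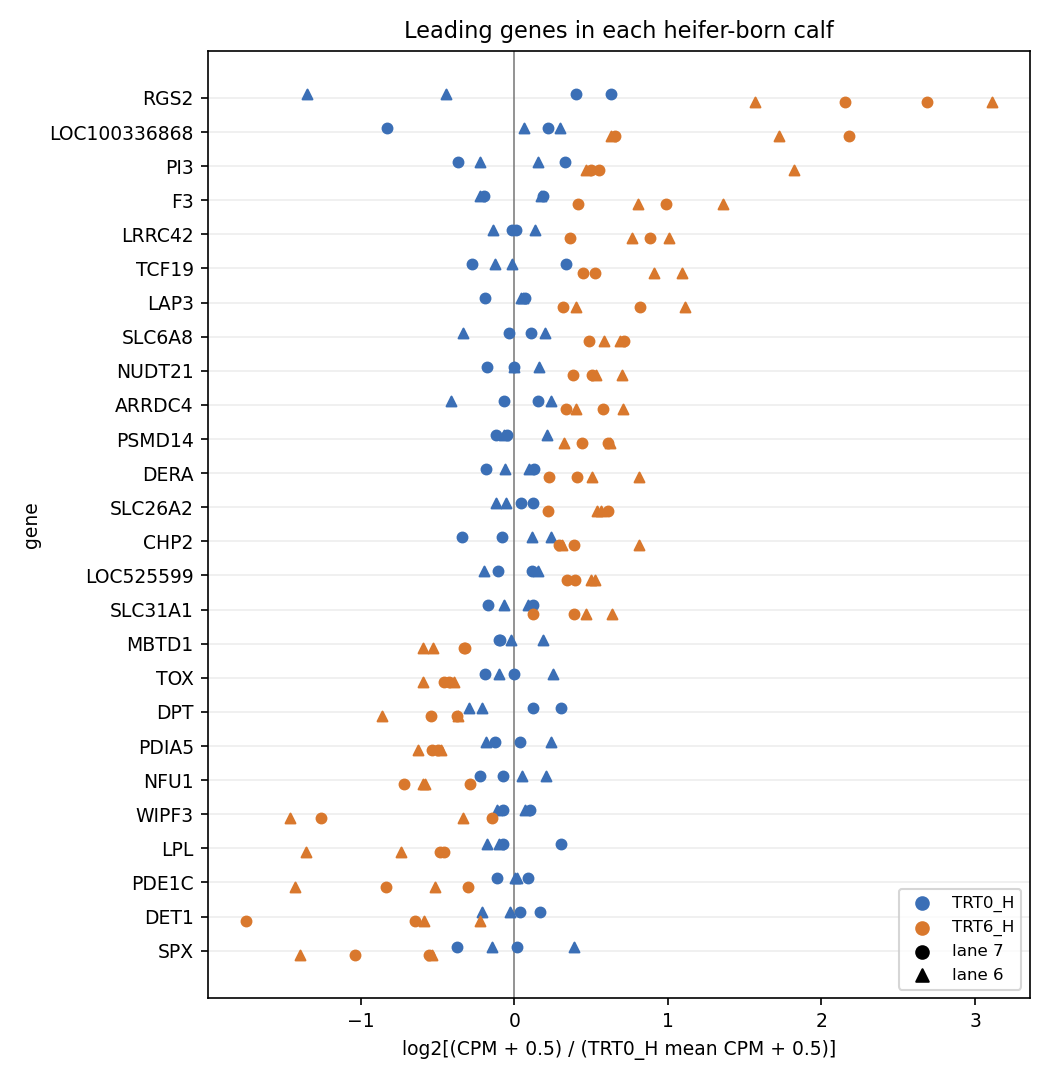
Values of the 26 genes that met the naming criteria in each of the 8 calves, as log2 of scaled CPM plus 0.5 relative to the TRT0_H mean (horizontal axis), 1 row per gene. Circles mark lane 7 and triangles lane 6, and in each row the 4 TRT6_H calves (orange) lie on one side of the 4 TRT0_H calves (blue), as the criteria require, with the widest gap for RGS2.

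Another 4 tested genes, without a symbol, were chosen after their values were seen, because they were near the top of the order of all genes or passed the threshold in an alternative test. ENSBTAG00000037605 headed the order of all genes, at 59, 57.1, 36.1 and 0.981 CPM in TRT0_H and at 1.44, 2.43, 0.469 and 1.63 CPM in TRT6_H (adjusted p = 0.712). TRT0_H calf 4164 lay inside the range of TRT6_H, whose values rest on 1 to 3 reads per calf, so the fitted log2 fold change of -4.76 (SE 0.85) is no bound. The gene passed the threshold in the likelihood ratio test (adjusted p = 7.24e-05) and the exact test of edgeR (adjusted p = 0.000182), without a filter and without calf 4164. ENSBTAG00000017722 was at 29.1, 17, 29.9 and 22.6 CPM in TRT0_H and at 41.7, 59.1, 45.5 and 58 CPM in TRT6_H (log2 fold change 1.03, SE 0.21, adjusted p = 0.876). ENSBTAG00000006984 was at 9.32 to 14.1 CPM in TRT0_H and at 19.7 to 25.3 CPM in TRT6_H, with a log2 ratio of 0.94 in lane 6 and 0.97 in lane 7. ENSBTAG00000002092 was at 67.2, 27, 46.2 and 57.9 CPM in TRT0_H and at 24.4, 14.6, 25.3 and 12.3 CPM in TRT6_H, and passed the threshold with the sequencing lane in the edgeR fit (adjusted p = 0.0391).

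The muscle and connective tissue lists lay below zero as groups, although no member passed the adjusted threshold. All 13 smooth muscle markers had a lower fitted level in TRT6_H, with a median log2 fold change of -0.17 and a range of -0.39 to -0.04, and 0 of 13 had an unadjusted p under 0.05. DES, the intermediate filament desmin of muscle, averaged 1754 ± 314 CPM in TRT0_H and 1337 ± 338 CPM in TRT6_H (SD, n = 4 each). CNN1, the actin-binding calponin, averaged 684 ± 113 and 542 ± 186 CPM, and MYH11, smooth muscle myosin, 3678 ± 514 and 3274 ± 896 CPM. The summed CPM of the smooth muscle markers was 12526 to 15980 in TRT0_H and 8833 to 16893 in TRT6_H. The highest sum of the 8 was in TRT6_H calf 4114 and the lowest in TRT6_H calf 4125, so the groups overlapped. With 1 calf left out the group difference in this sum ranged from -3384 to -697 CPM.

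Of 26 matrix and collagen genes, 25 had a lower fitted level in TRT6_H, with a median log2 fold change of -0.24. The median was 0.00 over all tested genes and 0.03 over those with a symbol. COL12A1, a fibril-associated collagen, was at 503, 328, 364 and 452 CPM in TRT0_H and at 359, 265, 306 and 333 CPM in TRT6_H, and was the sole member with an unadjusted p under 0.05 (log2 fold change -0.38, SE 0.17). COL1A1 and COL3A1, the main fibrillar collagens, averaged 4100 ± 1540 and 5414 ± 1087 CPM in TRT0_H against 3082 ± 989 and 4338 ± 721 CPM in TRT6_H. DCN and LUM, small proteoglycans that bind collagen fibrils, had log2 fold changes of -0.40 and -0.38, and FBN1, the microfibril protein fibrillin, -0.37. All 8 fibroblast markers were lower (median -0.32), and 7 of them are also in the matrix list. The medians of the matrix list were -0.12 in lane 6 and -0.31 in lane 7, and -0.23 without calf 4122. The summed fibroblast markers ranged from 12209 to 20277 CPM in TRT0_H and from 10301 to 15989 CPM in TRT6_H (exact two-sided permutation test, p = 0.200, adjusted p = 0.660). Genes of 1 cell type vary together within a library, so the members of a list are not independent of each other.

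Epithelial lists lay on the other side of zero. All list members have a symbol, and 2164 of the 3803 tested genes with a symbol were also fitted higher (median 0.03, 0.06 in lane 6 and 0.01 in lane 7). Of 14 absorptive colonocyte markers, 13 had a higher fitted level in TRT6_H (median log2 fold change 0.19, 0.19 in lane 6 and 0.13 in lane 7), and 1 had an unadjusted p under 0.05. That gene was CA1 (ENSBTAG00000032236), the carbonic anhydrase of colonocytes, at 21.6, 24.4, 40.9 and 28.0 CPM in TRT0_H and at 42.2, 135, 32.8 and 126 CPM in TRT6_H. Calves 4122 and 4146 were far above the other 6, which overlapped. The log2 fold change of 1.51 (SE 0.39) was 0.39 without those 2 calves, no longer at an unadjusted p under 0.05. They were also the 2 smallest libraries. AQP8, a water channel of the colon surface, averaged 114 ± 50.9 and 149 ± 31.4 CPM, and SLC26A3, the chloride-bicarbonate exchanger, 77.1 ± 18.1 and 98.0 ± 24.8 CPM. Summed over the list, colonocyte markers were at 2824 to 3731 CPM in TRT0_H and 3241 to 4112 CPM in TRT6_H (exact two-sided permutation test, p = 0.171).

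Of 16 genes of short-chain fatty acid and ion transport, 14 had a higher fitted level in TRT6_H, with a median of 0.25. AQP3, a water and glycerol channel, had the lowest p of the list, but at 0 to 15 reads per calf, with 1.57, 0.872, 0 and 1.96 CPM in TRT0_H and 7.19, 2.43, 0.938 and 3.27 CPM in TRT6_H. The 3 remaining epithelial lists had 4 tested members each. Goblet cell markers had a median of 0.27 that was -0.06 without calf 4122, and CLCA1, a secreted mucus protein, was at 355, 278, 411 and 109 CPM in TRT0_H and at 435, 384, 495 and 458 CPM in TRT6_H. Its log2 fold change of 0.62 was 0.35 without TRT0_H calf 4164, the lowest of the 8. Crypt and dividing cell markers had a median of 0.26 that was 0.03 without calf 4122, in which OLFM4, a stem cell gene, was at 3372 CPM against 1805 to 2031 CPM in the other TRT6_H calves. Enteroendocrine markers had a median of 0.27 with 0 of 4 at an unadjusted p under 0.05.

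Small-intestine markers were included as a check of the segment. APOA4 (ENSBTAG00000019770), an apolipoprotein of fat-absorbing enterocytes, was at 0.393, 0.436, 0.880 and 2.94 CPM in TRT0_H and at 11.5, 2.43, 4.22 and 3.27 CPM in TRT6_H, on 1 to 24 reads per calf. The log2 fold change was 2.29 (SE 0.66), and TRT0_H calf 4164 overlapped with TRT6_H calf 4122. APOA1, of the same gene cluster in mammals, was at 53.5, 35.3, 25.1 and 71.6 CPM in TRT0_H and at 148, 19.4, 69.8 and 112 CPM in TRT6_H (log2 fold change 0.93, SE 0.42). The groups overlapped for both. ANPEP and the bile acid transporter gene SLC10A2, the other 2 tested members, had log2 fold changes of 0.51 and -0.06, and the sum of the list was 113 to 956 CPM in TRT0_H and 620 to 1136 CPM in TRT6_H. The share of these values that came from the place of the cut was not tested.

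**Figure D3:**
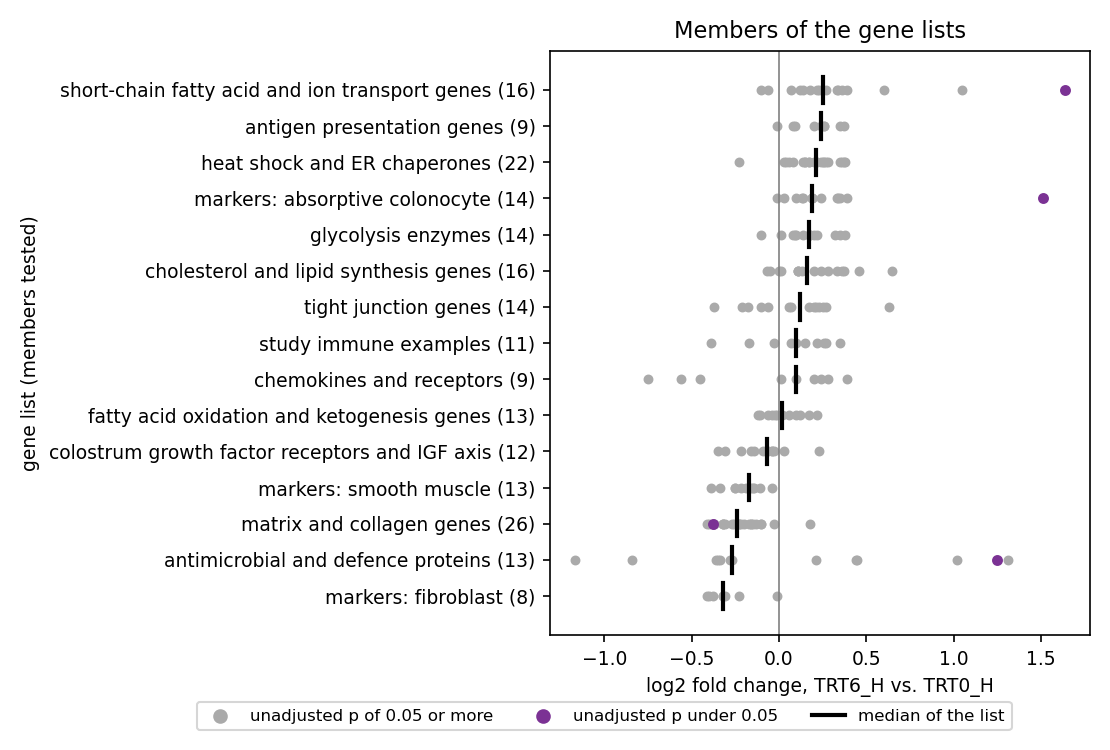
Log2 fold change of each tested member (points) of the 15 gene lists with at least 8 tested members, TRT6_H vs. TRT0_H, with the list median as a black bar and the number of members in brackets. Purple points had an unadjusted p under 0.05, and the fibroblast, matrix and smooth muscle medians lie at -0.32, -0.24 and -0.17 while the colonocyte and ion transport medians lie at 0.19 and 0.25.

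Lists of stress, metabolism and protein folding held no gene that passed the adjusted threshold. Their counts of higher genes stand beside 2164 of 3803 over all tested genes with a symbol. Of 22 heat shock and endoplasmic reticulum chaperones, 21 had a higher fitted level in TRT6_H (median 0.21), but the median was 0.01 without calf 4122, 0.40 in lane 6 and 0.00 in lane 7. HSP90B1, a chaperone of the endoplasmic reticulum, was at 1186 CPM in calf 4122 and at 560 to 599 CPM in the other TRT6_H calves, against 505 to 660 CPM in TRT0_H. Cholesterol and lipid synthesis genes showed the same dependence, with a median of 0.16 over 16 genes that was -0.06 without calf 4122. SCD, the stearoyl-CoA desaturase, was at 270 CPM in that calf and at 64.1 to 111 CPM in the other 7. Of 14 glycolysis enzymes, 13 were fitted higher (median 0.17, and 0.10 without calf 4122), among them PFKP, PGK1 and ENO1 with log2 fold changes of 0.38, 0.32 and 0.35, which were 0.25, 0.16 and 0.14 without calf 4122. Fatty acid oxidation and ketogenesis genes had a median of 0.02 over 13 genes, with 7 above and 6 below zero. Of 6 genes that respond to glucocorticoids or fasting, SGK1, a kinase that raises sodium transport, was at 57.8, 68.9, 37.4 and 77.5 CPM in TRT0_H and at 96.8, 98.7, 67.0 and 86.6 CPM in TRT6_H (log2 fold change 0.53, SE 0.21), and the median of the 6 was 0.11. The immediate early genes (6 tested) and clock genes (4 tested) had medians of -0.06 and -0.09 and no member with an unadjusted p under 0.05.

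Immune and barrier genes gave few differences. DEFB1, an epithelial defensin, was at 1.97, 3.92, 4.4 and 5.89 CPM in TRT0_H and at 18.2, 12.1, 1.41 and 6.54 CPM in TRT6_H, so the groups overlapped (log2 fold change 1.25, SE 0.56, and 0.63 without calf 4114). It was the sole antimicrobial gene of 13 with an unadjusted p under 0.05, and the median of that list turned from -0.27 to 0.27 without calves 4122 and 4146. PIGR, the receptor that carries immunoglobulin A across the epithelium, averaged 1474 ± 286 CPM in TRT0_H and 1212 ± 445 CPM in TRT6_H, and it and FCGRT had log2 fold changes of -0.28 and -0.04. NFKB2, a subunit of NF-kappa B, averaged 55.3 ± 4.74 and 72.7 ± 16.4 CPM (log2 fold change 0.41, SE 0.18), with calf 4146 at 49.0 CPM inside the TRT0_H range. The toll-like receptor and interferon lists had only 2 tested members each.

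Of 14 tight junction genes, 9 were fitted higher and 5 lower (median 0.12), with 0 at an unadjusted p under 0.05. JAM2, an adhesion molecule of vessels, was at 26.0 to 34.0 CPM in TRT0_H and at 20.2 to 23.5 CPM in TRT6_H without overlap (log2 fold change -0.37, SE 0.18), and F11R, its epithelial relative, had a log2 fold change of 0.27. Antigen presentation genes had a median of 0.24 over 9 genes, and 0.09 without calf 4122. The 9 chemokines and receptors had a median of 0.10 and the 12 growth factor receptors and genes of the IGF axis -0.07, each with 0 members at an unadjusted p under 0.05. CCL14, a chemokine, was at 3.08 to 5.40 CPM in TRT0_H and at 0.817 to 3.28 CPM in TRT6_H, on 1 to 11 reads per calf (log2 fold change -0.75, SE 0.45). Markers of endothelium, of nerve and glia, of lymphocytes and of myeloid cells had medians of -0.03, -0.10, 0.10 and 0.17 over 4, 4, 2 and 2 tested genes. Summed lymphocyte markers were at 55.4 to 66.2 CPM in TRT0_H and at 53.9 to 91.4 CPM in TRT6_H.

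The 11 immune-related examples of the study, chosen in that work on these and other calves, had a median log2 fold change of 0.10 and 0 members with an unadjusted p under 0.05. DES and TPM2 had log2 fold changes of -0.39 and -0.17, and LRP1 had -0.03. AHNAK, STAT3, SLC40A1, ACTG1, HSPA8, A2M, CANX and CALR had values of 0.07 to 0.35. CANX, a lectin chaperone, was at 618 to 651 CPM in TRT0_H and at 654 to 961 CPM in TRT6_H, the sole member whose groups did not overlap. Without calf 4122, CALR was at 0.12, CANX at 0.14 and HSPA8 at -0.02. With 1 calf left out A2M ranged from 0.11 to 0.42, and LRP1, STAT3 and SLC40A1 also changed sign when 1 calf was left out.

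Whether the genes moved in the same way in the calves of cows was asked in a fit of 18 calves with 4 groups, in which TRT6_C and TRT0_C share no calf with the heifer groups. In TRT6_C vs. TRT0_C, 0 genes were called (0%) and 295 had an unadjusted p under 0.05 (2.04%). The difference between the parities called 0 genes (0%), and 298 had an unadjusted p under 0.05 (2.06%). The likelihood ratio test of edgeR called 1 and 4 genes in these comparisons. The 1 gene was ENSBTAG00000045632, at 1657 and 789 CPM in TRT6_C calves 4140 and 4154 and at 1.86 to 3.80 CPM in the others. The 4 genes were RGS2, ENSBTAG00000045632, ENSBTAG00000046537 and ENSBTAG00000046695. Unlike the heifer groups, the cow groups were not balanced over lanes, with 3 of 5 TRT6_C calves and 0 of 5 TRT0_C calves in lane 6, and 2 TRT0_C calves and 1 TRT6_C calf in a second sequencing run. With the lane in the fit, 0 genes were called in either comparison. Of the 505 genes with an unadjusted p under 0.05 in the calves of heifers, 309 (61.2%) had the same sign in the calves of cows, where 52.8% of all tested genes did. The correlation of the log2 fold changes across those 505 genes was -0.160, a value across genes that are not independent of each other. In the calves of cows, 10 of the 505 had the same sign with an unadjusted p under 0.05. The 2.04% of all tested genes counts both directions, 145 higher and 150 lower in TRT6_C. It is therefore not a like share to set beside the 10 genes.

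RGS2 had the lowest p for the difference between the parities. On the scale of the 18 calves it was at 0 to 1.52 CPM in TRT0_H and 3.37 to 10.8 CPM in TRT6_H, while TRT0_C calves were at 4.07, 7.76, 7.03, 9.04 and 6.77 CPM. TRT6_C calves were at 2.49, 6.86, 2.07, 3.80 and 3.47 CPM. TRT0_H was thus the low group, and TRT0_C lay in the range of TRT6_H. The log2 fold change was -0.93 (SE 0.40) in the calves of cows, and the difference between parities was 3.95 (SE 0.70, adjusted p = 0.152, edgeR quasi-likelihood test), the lowest adjusted p of that comparison and above the threshold. In the likelihood ratio test of edgeR the RGS2 difference passed the threshold (adjusted p = 6.67e-05). LOC100336868 was likewise lowest in TRT0_H and higher in TRT0_C than in TRT6_C, at 11.7 ± 7.09 CPM in TRT0_C and 6.24 ± 3.13 CPM in TRT6_C (SD, n = 5 each), with a difference of 2.45 (SE 0.64). LAP3 was at 81.8 ± 13.1 CPM in TRT0_C and 77.4 ± 14.8 CPM in TRT6_C, a log2 fold change of -0.08 (SE 0.16).

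**Figure D4:**
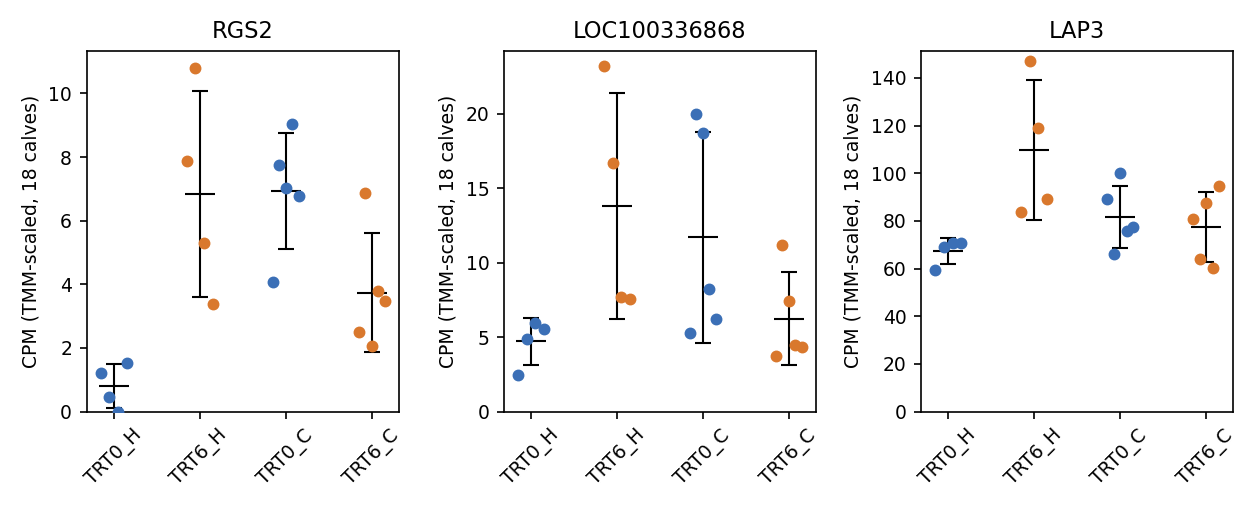
Scaled CPM of RGS2, LOC100336868 and LAP3 in each calf (points) of TRT0_H, TRT6_H (4 calves each), TRT0_C and TRT6_C (5 calves each), with the mean and SD as black bars, in blue for TRT0 and orange for TRT6. TRT0_H is the lowest group in all 3 panels, and RGS2 in TRT0_C, at 4.07 to 9.04 CPM, lies within the range of TRT6_H.

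Other leading genes had the same sign in both parities. TOX was lower in TRT6_C as well (log2 fold change -0.40, SE 0.14, against -0.47 in the calves of heifers), and it was the sole gene of the 26 with the same sign and an unadjusted p under 0.05 in both. SLC6A8 had 0.33 (SE 0.22), CHP2 0.30 (SE 0.15), DPT -0.35 (SE 0.20), and PDIA5 -0.31 (SE 0.20). Opposite signs were fitted for WIPF3, at 0.48 (SE 0.26), and NFU1, at 0.29 (SE 0.20). Of the 26 genes, 17 had the same sign, and 9 had an unadjusted p under 0.05 for the difference between parities. The 26 were chosen on the calves of heifers, whose values also enter that difference. For the lists, the smooth muscle median was -0.17 in the calves of heifers and 0.16 in those of cows, the fibroblast median -0.32 and -0.18, the matrix median -0.24 and -0.05, the colonocyte median 0.19 and 0.12, and the ion transport median 0.25 and 0.14. These differences between list medians were not tested.

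**Figure D5:**
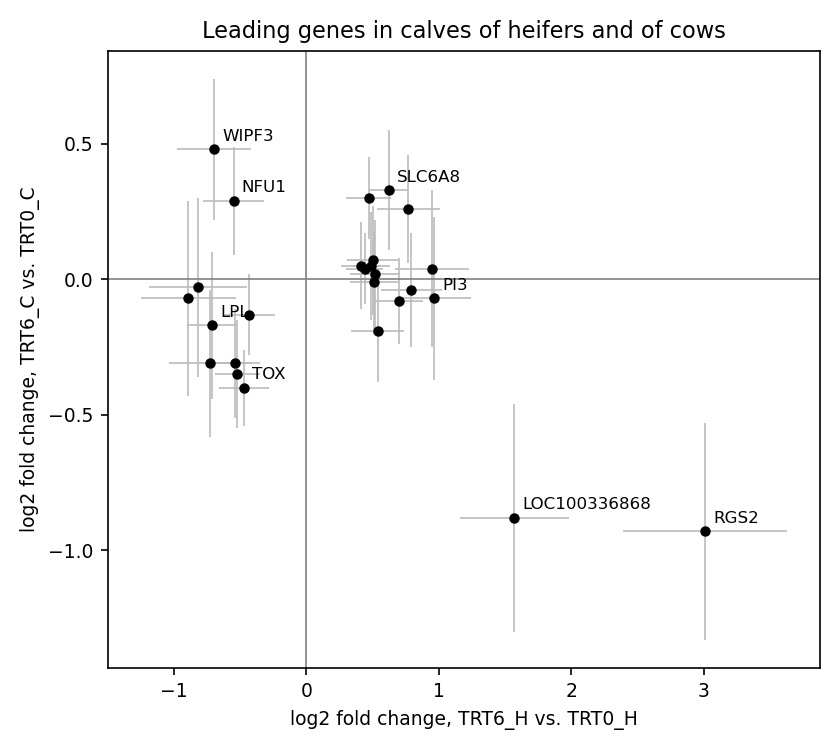
Log2 fold changes of the 26 named genes in the calves of cows (TRT6_C vs. TRT0_C, vertical axis) against those in the calves of heifers (TRT6_H vs. TRT0_H, horizontal axis), with bars of 1 standard error derived from the edgeR F statistics. RGS2 and LOC100336868 lie at the lower right, at -0.93 and -0.88 in the calves of cows against 3.01 and 1.57 in the calves of heifers, and 17 of the 26 genes have the same sign in both.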

How the data were processed

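The authors deposited raw gene counts per Ensembl gene for 27 colon samples, made from paired-end reads that passed a chastity filter. Reads were aligned to UMD3.1 with TopHat2 2.1.1, handled with SAMtools 1.4 and counted with HTSeq, leaving out reads of more than 1 gene. The strand setting is not given in the sources used here, so overlapping and antisense genes are uncertain. Symbols came from identifiers paired with names in the supplementary tables of the study (4050 identifiers) and are missing for most genes.

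The 8 columns were tested with edgeR 4.0.16 (quasi-likelihood fit, TMM factors, 2 group means, Benjamini-Hochberg over 14437 genes). Each SE was worked out as the absolute log2 fold change divided by the square root of the F statistic of that test. The thresholds, an adjusted p of 0.10 and a 1.2-fold change, were those of the study. The deposited counts summed to 1264884 to 2425707 per library, far below the reads per sample that the study reports. Ratios to a level of 3 counts leave out the spread among calves. No 2 libraries were identical or agreed within counting noise (lowest chi-square per degree of freedom 3.01). Each library came from a separate calf of a singleton birth. The parity of the dam was taken from the calf list of the study, since the labels do not give it. Single values were compared with exact permutation tests in scipy 1.17.1, where 4 against 4 calves cannot go below 0.0286. The fits were tested on simulated data.

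Genes were named by lowest p (up to 15 per direction, mean of at least 5 CPM, unadjusted p under 0.05, groups apart), by fold change (up to 5 per direction, p under 0.01, groups apart), as examples of the study, and as list members with an unadjusted p under 0.05 (up to 4 a list). Other list members and the genes given by identifier were chosen after their values were seen. The comparison, the 32 gene lists and the naming rule were chosen with earlier results of these data known. The interstitial cell list had no member with an identifier. DESeq2 1.42.0, other tests, scalings, filters, a lane term, larger fits and leaving out calves were tried as alternatives. Some list members are not reported here.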

Additional observations from a re-analysis of the deposited data

Results flagged for a closer look

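In 184 sets of 4 values (a gene or a library measure in 1 group of 4 calves), 11 had 1 calf whose gap to its nearest neighbour took more of the whole range than the critical value of Dixon. Calf 4122 was that calf in 6 of them, always as the highest TRT6_H value. It had 1724 CPM of PI3 against 672 to 714 in the other TRT6_H calves, 270 CPM of SCD against 85.8 to 98.7, 3372 CPM of OLFM4 against 1805 to 2031, 1186 CPM of HSP90B1 against 560 to 599, and 117 CPM of CA2 against 73.5 to 79.6. The summed CPM of crypt and dividing cell markers, in which OLFM4 is the main gene, was 3719 in calf 4122 against 2008 to 2281. SCD, OLFM4, HSP90B1 and CA2 were named after their values were seen, and genes vary together within a library. The sets are thus neither unselected nor independent, so no chance rate is given for them.

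Other calves stood apart for 1 gene each. ITLN2, an intelectin of mucus-secreting cells, was at 156 CPM in TRT0_H calf 4164 and at 0 to 0.440 CPM in the other TRT0_H calves. In TRT6_H it was at 46.5, 111, 51.1 and 0 CPM, so high and low calves occurred in both groups. LAP3 was at 57.4 CPM in TRT0_H calf 4124 against 67.5 to 68.7 in the others, and SLC26A3 was at 104 CPM in TRT0_H calf 4135 against 67.2 to 69.2. CHP2 was at 208 CPM in TRT6_H calf 4146 against 145 to 155, and A2M was at 695 CPM in TRT6_H calf 4114 against 1107 to 1183.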

How the results depend on the processing

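No paired analysis was made, since the calves were separate animals assigned at random to a feeding time. The count of called genes was 0 in the quasi-likelihood test and was 8 in the likelihood ratio test, 8 in the exact test, 28 without a filter (25 of them among the 14437 genes) and 2 with the lane as a covariate. It was 0 to 5 when 1 calf was left out, the 5 without TRT0_H calf 4164. The likelihood ratio test called 1 gene in the calves of cows and 4 in the difference between parities. The 505 genes with an unadjusted p under 0.05 in TRT6_H vs TRT0_H became 323 in DESeq2, 341 to 762 when 1 calf was left out (762 without TRT6_H calf 4125) and 321 without the 2 smallest libraries, an alternative chosen after seeing the data. The 357 genes whose groups do not overlap in TRT6_H vs TRT0_H became 588 to 984 with 1 calf fewer and 1498 with 2 fewer, as fewer calves leave more genes apart.

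Named genes kept their sign in all alternatives with 5 exceptions: the HSPA8 log2 fold change was -0.02 without calf 4122 (-0.02 to 0.35 with 1 calf left out), STAT3 -0.01 without calf 4164 (to 0.26), SLC40A1 -0.07 without calf 4146 (to 0.18) and -0.01 without the 2 smallest libraries, ITLN2 -0.15 without calf 4122, and LRP1 0.07 without calf 4164 (from -0.12), 0.01 without calf 4122 and 0.07 without the 2 smallest libraries. ITLN2 was called without calf 4164 (log2 fold change 7.24, adjusted p = 0.0964). With 1 calf left out, the group difference (TRT6_H minus TRT0_H) was -506 to 9.42 in genes at 1 CPM, -1.51 to 1.10 in the percentage of counts in the 10 highest genes, and in summed CPM -21.5 to 24.7 for enteroendocrine, -3.35 to 1.41 for nerve and glia and -0.530 to 24.8 for myeloid markers. The cause of these changes was not tested. With 1264884 to 2425707 counts, genes near 1 CPM rest on 1 to 3 reads.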
